A study of Homo sapiens with 9 samples.

Results

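Neuroendocrine differentiation was read from 9 genes, ENO2, CHGA, CHGB, SYP, SCG2, SCG5, NTS, TUBB3 and REST, that were chosen by name as markers of this cell state. Of these, 8 were among the 37351 genes of the count table, and 5 (ENO2, REST, SYP, TUBB3 and SCG5) passed the filter on low counts that left 19250 genes for testing. CHGB had no row in the table and was not analysed here. CHGA, SCG2 and NTS had too few counts to be tested with the other genes and are given by their counts.

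The cells were LNCaP, an established androgen-responsive line from a human metastatic prostate carcinoma. They were starved in medium free of serum and calcium and then given recombinant NRG1 (neuregulin 1, a ligand of the HER3 and HER4 receptors) at 15 ng/mL. Total RNA was taken at 0, 12 or 24 h, with 3 biological replicates at each time, all of them from the same line. The 0 h cells had already been starved, and no untreated libraries at 12 or 24 h were used here, so NRG1 and time in serum-free medium cannot be told apart.

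Neuroendocrine cells store peptides and granins in dense-core granules and release them on demand. In prostate adenocarcinoma they are rare, and luminal carcinoma cells can take on some of their traits, among other settings when androgen or serum is withdrawn. The repressor REST binds a long element in the promoters of neuronal genes and keeps them silent outside the nervous system, and its loss is one known route to such traits.

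Library totals ranged from 47016302 to 60985825 counts, so that 3 counts in the first 0 h library equalled 0.0484 counts per 1000000 (CPM). Replicate libraries correlated at 0.991 to 0.993 on log2 CPM, and no pair agreed within sampling noise. Values are CPM on scaled library sizes, given as mean ± SD over 3 replicates. A gene is called changed at an adjusted p of at most 0.05 in edgeR's quasi-likelihood test (Benjamini-Hochberg over all tested genes), and a fold change of at least 1.5 is counted separately. All 12 luminal prostate markers, such as KLK3, HOXB13 and FOXA1, passed the count filter, with summed levels of 5854 to 6270 CPM. Basal markers summed to between 0.0384 and 0.331 CPM, and KRT5 had 1 count in all 9 libraries. Among markers of stromal, immune and endothelial cells, CD3E had 3 counts and COL1A2 1 count over the 9 libraries, while COL1A1 (22.4 to 24.6 CPM by group) and VWF (7.39 to 13.1 CPM) made up most of the list's 30.8 to 40.6 CPM.

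Upstream sequences are shown for ENO2, the only marker that changed, and for CHGA, the classic granule marker that stayed close to 0. RefSeq promoter windows of 250 bases before the start site (GRCh38.p14) were found for 7 of the 9 markers, in 9 windows. They were searched on both strands for the core of the cyclic AMP response element (TGACGT), the AP-1 element (TGANTCA), an EGR element (GCGNGGG), the left (CAGCACC) and right (GGACAGC) arms of the REST element and the GC box (GGGCGG), whose matches may overlap those of the EGR element. The window of ENO2 lies within an exon of a longer annotated ENO2 transcript, so only 30 bases around each match are printed. Capitals mark the AP-1 or EGR letters in these stretches of the plus strand, given 5′ to 3′, and where a match lies on the minus strand, as both EGR matches of ENO2 do, they show its complement on the plus strand.
ENO2, chr12:6914440-6914469, EGR: tcggtcccccaCCCGCGCtcgtacgtgcgc
ENO2, chr12:6914475-6914504, AP-1: ccggcagctccTGACTCAtcgggggctccg
ENO2, chr12:6914505-6914534, EGR: ggtcacatgcgCCCGCGCggccctataggc
The window of CHGA (chr14:92922900-92923149, plus strand) held the cyclic AMP core on both strands, between 54 and 47 bases before the start, and 4 EGR matches, the first pair of them on the minus strand, all in capitals.
CHGA: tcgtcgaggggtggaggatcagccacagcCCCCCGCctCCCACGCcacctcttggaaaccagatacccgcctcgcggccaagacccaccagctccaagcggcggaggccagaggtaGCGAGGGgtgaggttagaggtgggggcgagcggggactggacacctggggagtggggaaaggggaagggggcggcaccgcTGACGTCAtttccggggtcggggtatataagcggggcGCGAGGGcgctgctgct

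The cyclic AMP core was found in 1 of the 9 marker windows, against 7.10% of 35116 promoter windows searched. AP-1 letters were in 3 of 9, against 6.57% of all windows, and EGR letters in 6 of 9, against 31.4%. The GC box was in 7 of 9, against 42.6%. The left arm of the REST element was in none of the 9 and the right arm in 1, a window of REST itself, against 6.16% and 4.76% of all windows. REST and TUBB3 each counted with more than 1 window. The marker windows ran from 49.2% to 78.4% GC, and the shares were not matched for GC content. These matches describe the letters and were not tested as binding sites.

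The markers differed in level by over 4 orders of magnitude per kilobase of exon. ENO2, the gamma enolase of neurons and neuroendocrine cells, was the most abundant at 23.8 CPM per kilobase, above 90.7% of the tested genes. REST followed at 7.47 CPM per kilobase, above 72.5%, and SYP, a membrane protein of small secretory vesicles, at 0.481, above 27.1%. SCG5 (the 7B2 protein, a chaperone of the prohormone convertase PCSK2) stood at 0.116 CPM per kilobase and TUBB3 (neuronal beta-III tubulin) at 0.0899. SCG2 (secretogranin II, 0.0273) and CHGA (chromogranin A, 0.0230) came next, and NTS (the neuropeptide neurotensin) was last at 0.00123 CPM per kilobase. The library ranges of ENO2, REST and SYP did not overlap those of any other marker, whereas each of the other 5 overlapped its neighbours in this order.

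**Figure D1:**
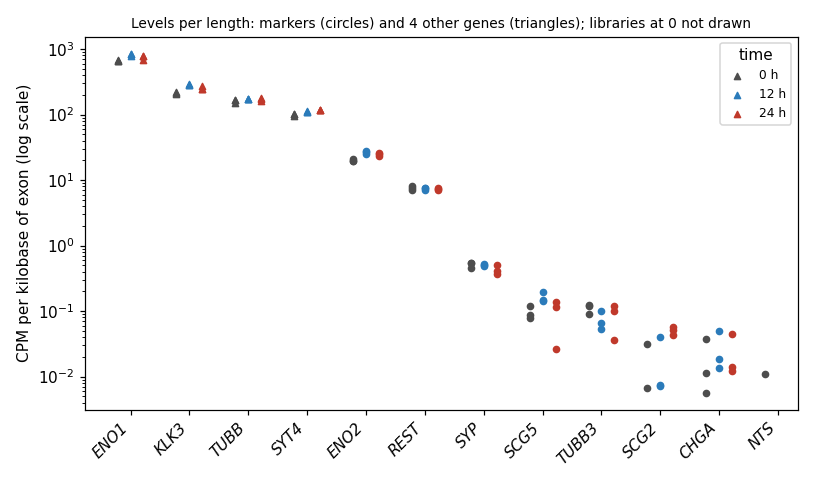
Level per length of each marker (circles) and of 4 other genes (triangles) in each of the 9 libraries, as CPM per kilobase of exon on a log axis, with color for the time. ENO2 and REST lie far above SYP, and the other markers lie under 0.2 CPM per kilobase; libraries without a count are not drawn.

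ENO2 rose after NRG1 (ENSG00000111674.9, protein coding, chr12:6913745-6923698). Its levels were 84.4, 84.2 and 89.7 CPM at 0 h, 109, 113 and 118 CPM at 12 h, and 112, 107 and 102 CPM at 24 h. Every 12 h and 24 h library was above every 0 h library, and the 12 h and 24 h libraries overlapped. Separation from 0 h, in either direction, was seen for 32.8% of all tested genes at 12 h and 33.5% at 24 h. The mean went from 86.1 ± 3.13 CPM to 113 ± 4.68 and then 107 ± 5.01 CPM (SD, n = 3). The log2 fold change was 0.40 (SE 0.039, 95% interval 0.32 to 0.48, adjusted p = 8.83e-10 in edgeR) at 12 h and 0.31 (SE 0.039, interval 0.23 to 0.39, adjusted p = 1.39e-07) at 24 h. These correspond to rises of 31.6% and 23.8%, below the 1.5-fold threshold at either time. Between 12 and 24 h the log2 difference was -0.088 (interval -0.17 to -0.0095, adjusted p = 0.197).

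ENO2 was the only marker to pass the test, 1 of 5 tested against 0 h at 12 h and again at 24 h. Of all tested genes, 18.7% changed at 12 h (10.6% upward and 8.16% downward) and 21.1% at 24 h (11.6% and 9.48%), so the share of markers that changed was close to that of all genes. None of the 5 markers reached 1.5-fold as well, against 2.37% of all genes at 12 h and 3.31% at 24 h. Between 24 and 12 h no marker changed, against 6.08% of all genes (3.03% upward and 3.05% downward), of which 0.452% also reached 1.5-fold. In the test of any difference among the 3 times, ENO2 was again the 1 marker that passed, against 25.1% of all genes. At an unadjusted p under 0.05 the count of markers was 1 in each of the 3 comparisons, ENO2 each time, in edgeR and in DESeq2. The share of all tested genes under that unadjusted threshold is not given here, so this count has no background to be read against. The median log2 change of the 5 was -0.0088 at 12 h and -0.051 at 24 h, beside medians of -0.0084 and -0.0068 over all genes.

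**Figure D2:**
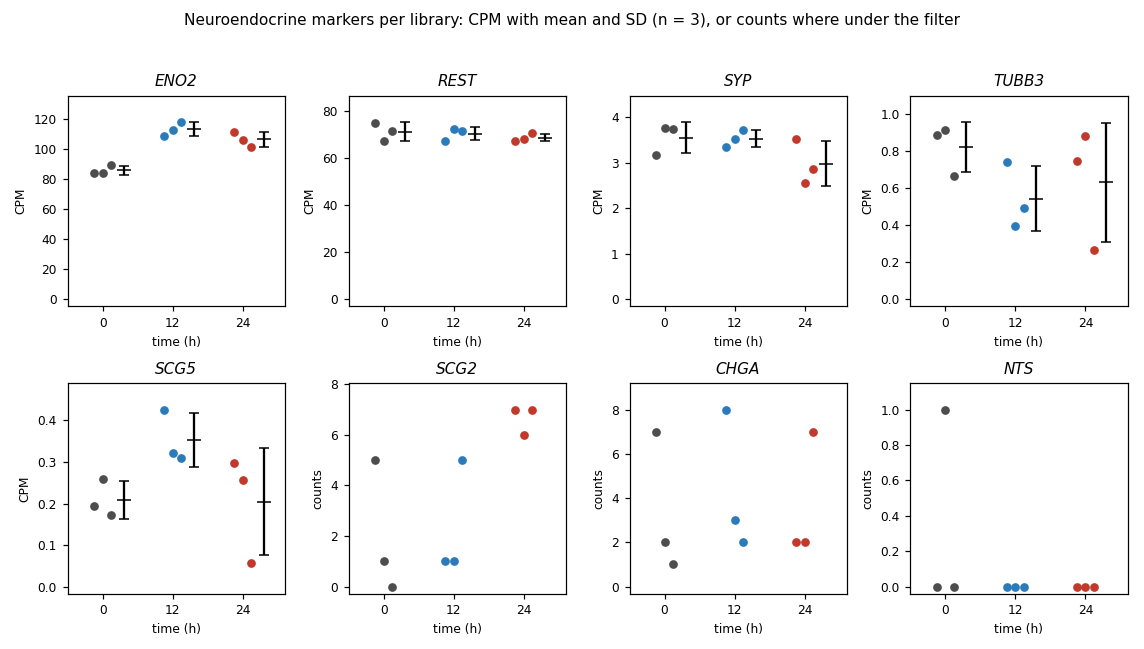
Values of the 8 markers with a row in the table, 1 point per library at each time, as CPM with mean and SD (n = 3) or, for SCG2, CHGA and NTS, as counts. The ENO2 points at 12 and 24 h all lie above those at 0 h, the REST points overlap at all 3 times, and SCG2 has 6 or 7 counts in each 24 h library against 0 to 5 in the others.

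ENO2 is a minor part of the enolase transcripts in these cells. ENO1, the alpha enolase found in most tissues, averaged 3492, 4323 and 3887 CPM at the 3 times, a log2 rise of 0.31 (SE 0.046, adjusted p = 0.000123) and 0.15 (adjusted p = 0.0247). ENO1 overlapped between 24 h and 0 h libraries, and leaving out any of 4 libraries ended its call at 24 h, with log2 values of 0.12 to 0.15 and adjusted p of 0.0836 to 0.153. Per kilobase, ENO2 made up 2.90% ± 0.033 of the enolase transcripts before NRG1 and 3.08% ± 0.044 and 3.23% ± 0.15 after it (SD, n = 3). The shares did not overlap between 0 h and either later time. An exact 2-sided permutation test gave p = 0.1 for both comparisons, the smallest value that 3 against 3 can give, and p = 0.3 for 24 h against 12 h.

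The LRRC23 gene overlaps ENO2 by 497 bases on the same strand and had 13.2% as many counts. LRRC23 did not rise: its log2 change was -0.10 at 12 h (adjusted p = 0.335) and -0.26 at 24 h (adjusted p = 0.00579). The genes whose log2 CPM followed ENO2 most closely over the 9 libraries, among 11382 genes compared, were ADIPOR2 (r = 0.991), EEF2KMT (r = 0.984) and DIAPH1 (r = 0.982). ADIPOR2, an adiponectin receptor that also lies on chromosome 12, rose by 0.28 and 0.23 on the log2 scale at 12 and 24 h. EEF2KMT, a lysine methyltransferase, rose by 0.21 and 0.16, and DIAPH1, an actin-nucleating formin, by 0.35 and 0.28. These correlations describe libraries that share the 3 time groups.

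REST, the repressor of neuronal genes, showed no detectable change (ENSG00000084093.19, chr4:56907876-56966808). Its levels were 75.3, 67.2 and 71.7 CPM at 0 h, 67.4, 72.5 and 71.7 CPM at 12 h, and 67.5, 68.5 and 70.7 CPM at 24 h. The libraries of all 3 times overlapped. The log2 change was -0.019 at 12 h (interval -0.10 to 0.065, adjusted p = 0.823) and -0.051 at 24 h (interval -0.14 to 0.032, adjusted p = 0.434). Counts per library were 3169 to 4667, and the intervals reached a fall of no more than 0.14 on the log2 scale. NOA1, which overlaps REST by 3459 bases on the other strand and had 121% as many counts, changed by -0.014 at both times. Since it is not stated whether counting used strand, reads of this stretch cannot be told apart.

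Most genes whose proteins work with REST or act on it did not pass. Of 15 such genes 14 were tested. At 12 h 1 was higher and 2 were lower, and at 24 h 1 was lower. Over all tested genes 18.7% changed at 12 h and 21.1% at 24 h. CTDSPL, of a family of phosphatases that work with REST, was lower by 0.20 and 0.23 on the log2 scale (adjusted p = 0.000492 and 4.40e-05). KDM1A, the histone demethylase of the REST complex, was higher at 12 h by 0.096 (adjusted p = 0.0418), a call that ended when any of 5 libraries was left out (0.091 to 0.10, adjusted p up to 0.107). The corepressor RCOR1, the deacetylase HDAC1 and the phosphatase CTDSP2 did not pass at any time, with log2 changes between -0.085 and 0.060. The neuronal splicing factor SRRM4, which makes a shortened REST, was under the count filter, with 43 counts over the 9 libraries. The median log2 change of the 14 tested was 0.019 at 12 h and -0.012 at 24 h.

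SYP (synaptophysin, ENSG00000102003.11, chrX:49187815-49200199) was read in 139 to 218 counts per library. Its levels were 3.16, 3.76 and 3.73 CPM at 0 h, 3.35, 3.52 and 3.72 CPM at 12 h, and 3.52, 2.56 and 2.86 CPM at 24 h. The lowest values, in the second and the third 24 h libraries, lay under all 0 h and 12 h libraries, while the first 24 h library lay within them. The log2 change was -0.0088 at 12 h (interval -0.28 to 0.26) and -0.26 at 24 h (interval -0.53 to 0.018, adjusted p = 0.196), and -0.25 from 12 to 24 h (adjusted p = 0.338). No difference passed the test, and the intervals exclude a rise of 1.5-fold at either time.

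TUBB3 (ENSG00000258947.8, chr16:89921392-89938761) had 14 to 55 counts per library. At 0 h it stood at 0.887, 0.914 and 0.668 CPM, at 12 h at 0.741, 0.397 and 0.496 CPM, and at 24 h at 0.746, 0.883 and 0.269 CPM. The groups overlapped at every time. The log2 change was -0.59 at 12 h (interval -1.27 to 0.088, adjusted p = 0.243) and -0.38 at 24 h (interval -1.05 to 0.29, adjusted p = 0.479), and without the third 24 h library the 24 h value was -0.012, so neither a fall of more than 2-fold nor a level value was excluded at this depth. The neighbouring readthrough gene that shares TUBB3 sequence had 1 count. TUBB3 made up 0.0356% ± 0.0064 of the beta-tubulin transcripts per kilobase before NRG1 and 0.0214% ± 0.0068 and 0.0244% ± 0.012 after it (SD, n = 3), with an exact permutation p of 0.2 for either time against 0 h.

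Among relatives of the markers, ENO1 and TUBB were far more abundant than ENO2 and TUBB3. ENO3 (13.6 CPM at 0 h) lay below ENO2 (86.1 CPM), and TUBB2B (average log2 CPM -0.63) lay no higher than TUBB3 (-0.49). All 9 enolase, tubulin and synaptophysin relatives were tested, of which 3 were higher and 1 lower at 12 h and 2 higher at 24 h. The shares over all tested genes were 10.6% higher and 8.16% lower at 12 h, and 11.6% and 9.48% at 24 h. TUBB4B rose by 0.21 and 0.22 on the log2 scale (adjusted p = 1.35e-05 and 3.53e-06). TUBB, the most abundant of the tubulins, differed by 0.10 and 0.087 (adjusted p = 0.0684 and 0.113). TUBB passed at both times without the second 0 h library (0.13 and 0.12, adjusted p = 0.0218 and 0.0387) or without the third 24 h library (0.10 and 0.13, adjusted p = 0.0259 and 0.00773). At 12 h TUBB6 was higher by 0.46 (adjusted p = 0.0288) and TUBB4A lower by 0.16 (log2 change -0.16, adjusted p = 0.0336). The call of TUBB6 ended without any of 4 libraries (0.39 to 0.46, adjusted p up to 0.125), as did that of TUBB4A (-0.15 to -0.11, adjusted p up to 0.205). TUBB6 overlaps AFG3L2, a gene on the other strand with many more counts, by 15377 bases.

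SCG5 (ENSG00000166922.8, chr15:32641676-32697098) had 12, 15 and 10 counts at 0 h, 23, 17 and 15 at 12 h, and 14, 14 and 3 at 24 h. In CPM these were 0.194, 0.259 and 0.171, then 0.426, 0.322 and 0.310, and then 0.298, 0.257 and 0.0576. All 12 h libraries lay above all 0 h and all 24 h libraries. Such a separation was seen for 32.8% of all tested genes at 12 h against 0 h and for 24.4% at 24 h against 12 h. The fitted log2 change was 0.76 at 12 h (interval -0.24 to 1.76, adjusted p = 0.322), -0.032 at 24 h and -0.79 from 12 to 24 h (adjusted p = 0.425). The antisense transcript SCG5-AS1 had 14.6% as many counts.

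**Figure D3:**
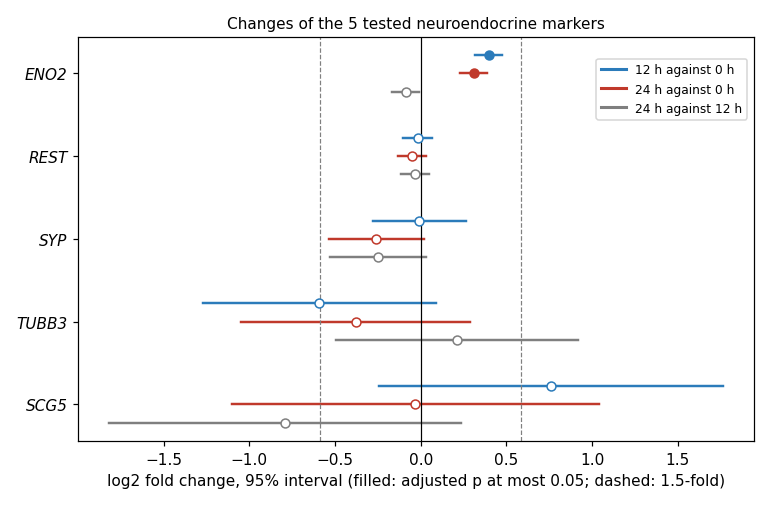
Log2 fold change with its 95% interval for the 5 tested markers in the 3 comparisons, with filled points for an adjusted p of at most 0.05 and dashed lines at 1.5-fold. ENO2 lies to the right of 0 at 12 and 24 h and within the dashed lines, REST has narrow intervals around 0, and the intervals of TUBB3 and SCG5 reach past the dashed lines.

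SCG2 (ENSG00000171951.5, chr2:223596940-223602361) was read 5, 1 and 0 times at 0 h, 1, 1 and 5 times at 12 h, and 7, 6 and 7 times at 24 h. Each 24 h library had more counts than any earlier one. Pooled over 3 libraries the level was 0.0336 CPM at 0 h (exact Poisson 95% interval 0.0123 to 0.0732), 0.0451 CPM at 12 h (0.0181 to 0.0929) and 0.130 CPM at 24 h (0.0796 to 0.201). These intervals cover counting error only. The exact 2-sided permutation test on CPM gave p = 0.1 for 24 h against 0 h and against 12 h, the smallest possible with 3 libraries a group. Non-overlap of this kind occurred in 33.5% of tested genes at 24 h against 0 h and in 24.4% at 24 h against 12 h. With the count filter removed the edgeR fit gave an adjusted p of 0.349 against 0 h.

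CHGA (ENSG00000100604.13, chr14:92923150-92935285) was read 7, 2 and 1 times at 0 h, 8, 3 and 2 times at 12 h, and 2, 2 and 7 times at 24 h. The pooled levels were 0.0561, 0.0837 and 0.0717 CPM in the same order, each with a Poisson interval that holds the other 2 values. The exact permutation p was 0.5 for both times against 0 h. NTS (ENSG00000133636.11, chr12:85874295-85882992) had 1 count, in the second 0 h library, and none at 12 or 24 h. A count of 0 over 3 libraries allows up to 0.0193 CPM at 12 h and 0.0196 CPM at 24 h (3 counts of the total), and the exact Poisson 95% interval reaches 0.0238 and 0.0240 CPM. No difference in CHGA or NTS was detectable at this depth.

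Several other genes of granules and exocytosis rose. Of 17 listed, 9 were tested. At 12 h 3 were higher and none lower, and at 24 h 5 were higher and 1 lower. Of all tested genes, 10.6% were higher and 8.16% lower at 12 h, and 11.6% and 9.48% at 24 h. The median log2 change of the 9 was 0.083 at 12 h and 0.26 at 24 h, beside -0.0084 and -0.0068 over all genes.

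VGF, a secreted neuropeptide precursor of the extended granin family, had the largest change. It stood at 0.436, 0.500 and 0.343 CPM at 0 h, 1.74, 1.72 and 1.47 CPM at 12 h, and 1.92, 1.77 and 2.07 CPM at 24 h. The 24 h libraries lay above the 12 h libraries and both above 0 h. Groups did not overlap for 32.8% of all tested genes at 12 h and 33.5% at 24 h against 0 h. For 24 h against 12 h the share was 24.4%. The rise of VGF was 3.85-fold at 12 h (95% interval 2.77 to 5.34, adjusted p = 6.87e-08) and 4.48-fold at 24 h (interval 3.24 to 6.20, adjusted p = 3.41e-09). From 12 to 24 h the log2 difference was 0.22 (adjusted p = 0.614).

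SYT4, a synaptotagmin of granule membranes, was the most abundant of the list per kilobase. It rose from 429 ± 14.3 CPM to 472 ± 11.8 and 513 ± 2.85 CPM (SD, n = 3), a log2 change of 0.14 (adjusted p = 0.00137) and 0.26 (adjusted p = 5.86e-08). PAM, the enzyme that amidates peptides, differed by 0.083 at 12 h (adjusted p = 0.582) and rose by 0.49 at 24 h (adjusted p = 3.22e-05). PCSK1N, the proSAAS inhibitor of a prohormone convertase, went from 16.8 to 15.1 and 19.8 CPM, with log2 changes of -0.16 (adjusted p = 0.0736) and 0.24 (adjusted p = 0.00371). CPE, a carboxypeptidase of prohormones, was higher at 24 h by 0.12 (adjusted p = 0.0114), and the call ended without the third 0 h library (0.10, adjusted p = 0.0701) or the third 24 h library (0.11, adjusted p = 0.0581). VAMP2, a SNARE protein of vesicles, was the gene that fell at 24 h (log2 change -0.18, adjusted p = 0.00886). Its call ended without the third 0 h library (-0.16, adjusted p = 0.0585) or the third 24 h library (-0.15, adjusted p = 0.0634). RAB3A, a GTPase of regulated exocytosis, was higher at 12 h by 0.17 (adjusted p = 0.00382), and MPV17L2, which overlaps it, was not (log2 change 0.013). The 8 genes under the filter had between 2 and 54 counts over the 9 libraries, among them SNAP25 with 2, PCSK2 with 6, and SCG3 and PCSK1 with 10 each.

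**Figure D4:**
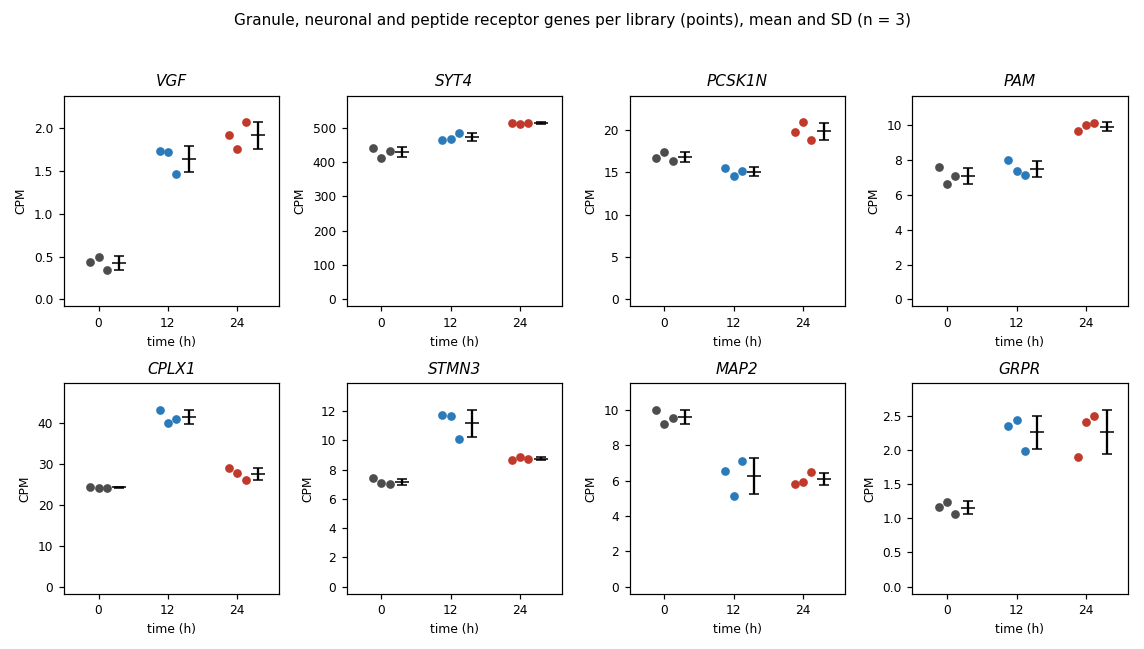
CPM per library with mean and SD (n = 3) at 0, 12 and 24 h for 4 granule genes (upper row), 3 neuronal genes and the bombesin receptor gene GRPR (lower row). VGF, SYT4 and PAM are highest at 24 h, CPLX1 and STMN3 are highest at 12 h, and MAP2 is lower at 12 and 24 h than at 0 h.

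Neuronal genes moved in both directions. Of 19, 11 were tested, of which 3 were higher and 2 lower at 12 h and again at 24 h. Of all tested genes, 18.7% changed at 12 h and 21.1% at 24 h. The list's median log2 change was 0.31 and 0.28, beside -0.0084 and -0.0068 over all genes. Its summed level was 76.9 to 79.9 CPM at 0 h, 91.8 to 97.3 CPM at 12 h and 74.6 to 80.3 CPM at 24 h. CPLX1 (complexin 1, a regulator of vesicle fusion) was 24.4, 24.3 and 24.2 CPM at 0 h, 43.4, 40.1 and 41.0 CPM at 12 h, and 29.0, 27.7 and 26.1 CPM at 24 h. Its log2 change was 0.77 at 12 h (adjusted p = 1.04e-14) and 0.18 at 24 h (adjusted p = 0.00645). The 24 h call ended without the first 24 h library (0.15, adjusted p = 0.0547). STMN3, a stathmin that destabilizes microtubules, rose by 0.64 (adjusted p = 2.01e-07) and 0.28 (adjusted p = 0.0117). DLL3, a Notch ligand found on neuroendocrine tumors, rose by 0.31 (adjusted p = 0.00467) and 0.39 (adjusted p = 0.000331). The dendritic microtubule protein MAP2 fell from 9.61 to 6.26 and 6.09 CPM (log2 change -0.62 and -0.66, adjusted p = 8.00e-06 and 2.49e-06). The glutamate receptor subunit GRIN1 fell by 0.31 and 0.37 on the log2 scale (adjusted p = 0.000151 and 1.02e-05).

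Of the transcription factors of the neuroendocrine lineage, 4 of 14 were tested. Over all tested genes 18.7% changed at 12 h and 21.1% at 24 h. SOX11, an embryonic neural factor, was the only factor of the list to change. It stood at 5.97, 6.00 and 6.06 CPM at 0 h, 3.95, 3.67 and 3.88 CPM at 12 h, and 3.71, 3.92 and 3.19 CPM at 24 h, below 0 h in all 6 later libraries. Such a separation from 0 h, in either direction, was seen for 32.8% of all tested genes at 12 h and 33.5% at 24 h. The log2 change of SOX11 was -0.65 (SE 0.11, adjusted p = 2.91e-05 in edgeR) and -0.74 (SE 0.11, adjusted p = 3.28e-06). LHX2 (-0.17 and -0.22), ISL1 (-0.55 and -0.82) and ONECUT2 (-0.062 and 0.095) did not pass, and LHX2 passed at 24 h without the second 24 h library (-0.40, adjusted p = 0.0465). Other factors of the list were scarcely read: over the 9 libraries INSM1 had 5 counts, FOXA2 2 and NEUROD1 1.

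Among neuropeptides and their receptors, 6 of 13 were tested, with 1 higher at 12 h, 2 higher at 24 h and none lower. Over all tested genes 10.6% were higher and 8.16% lower at 12 h, and 11.6% and 9.48% at 24 h. GRPR, the receptor of gastrin-releasing peptide, rose from 1.16 ± 0.090 CPM to 2.26 ± 0.24 and 2.27 ± 0.32 CPM (SD, n = 3). Its log2 change was 0.97 at both times (adjusted p = 0.000131 and 9.75e-05). An antisense transcript that overlaps GRPR by 578 bases, RP11-431J24.2, also rose, by 1.07 (adjusted p = 0.0484) and 1.52 (adjusted p = 0.00256), and had 25.8% as many counts. Its ligand GRP had 1 count in all. PTHLH, the parathyroid hormone-like peptide, differed by 0.069 at 12 h and rose by 0.87 at 24 h (adjusted p = 0.00969), a call that ended without the third 24 h library (0.77, adjusted p = 0.0546). The neurotensin receptors NTSR1 (-0.46 and 0.12) and SORT1 (0.027 and -0.068), and the receptor VIPR1 (-0.015 and 0.058) did not pass on the log2 scale. The somatostatin receptor SSTR2 was read 4 to 28 times per library and differed by -0.88 on the log2 scale at 12 h (adjusted p = 0.233), or by -1.67 without the first 12 h library (adjusted p = 0.0634). At 24 h SSTR2 stood at 0.500 times its 0 h level (adjusted p = 0.164). Its libraries did not overlap, as for 33.5% of all tested genes. Without 1 of the 24 h libraries the log2 change of SSTR2 ranged from -0.65 (without the first) to -1.65 (without the second). NTSR1 passed at 12 h without the third 12 h library (-0.82, adjusted p = 0.0169).

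**Figure D5:**
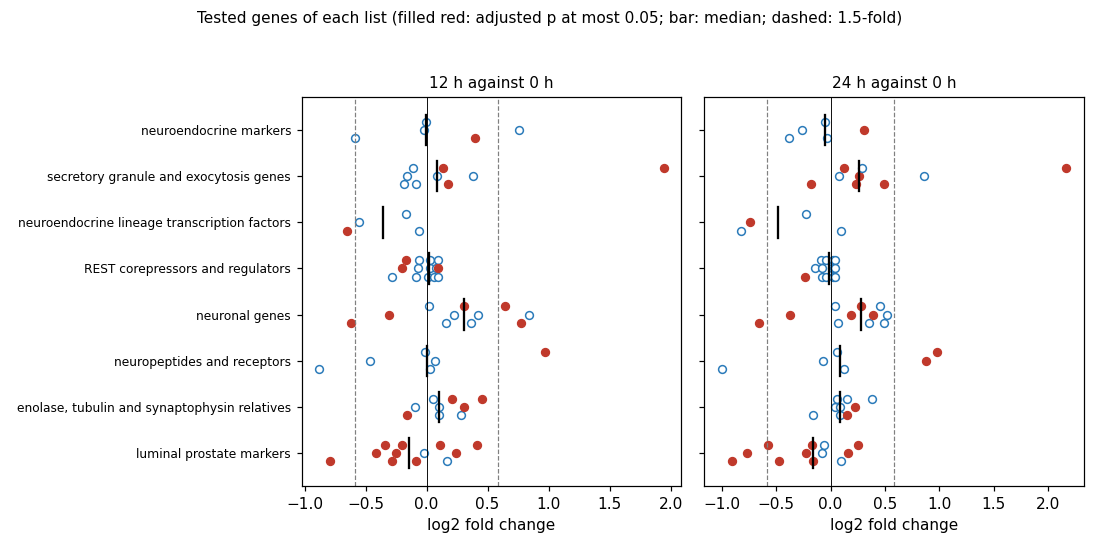
Log2 fold change of each tested gene of 8 lists at 12 h (left) and 24 h (right) against 0 h, with filled red points for an adjusted p of at most 0.05, a bar at the median and dashed lines at 1.5-fold. The marker list has 1 filled point, ENO2, and the granule list's median lies at 0.083 and 0.26.

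Luminal genes, which give the identity of the line, moved in both directions. Of 12, 3 were higher and 7 lower at 12 h, and 2 were higher and 7 lower at 24 h. The shares over all tested genes were 10.6% higher and 8.16% lower at 12 h, and 11.6% and 9.48% at 24 h. Prostate-specific antigen is the product of KLK3, which rose by 0.42 and 0.25 on the log2 scale (adjusted p = 4.34e-12 and 3.23e-07). SLC45A3 fell by 0.41 and 0.77 (adjusted p = 2.37e-11 and 6.49e-19) and TMPRSS2 by 0.25 and 0.57 (adjusted p = 3.97e-05 and 8.84e-13). The cytokeratin gene KRT8 rose by 0.24 and 0.16 (adjusted p = 7.71e-06 and 0.000961). KLK2 was higher at 12 h (log2 change 0.11, adjusted p = 0.0273) and lower at 24 h (-0.22, adjusted p = 1.42e-05). The 12 h call of KLK2 ended without any of 4 libraries (0.097 to 0.11, adjusted p = 0.0760 to 0.110). STEAP2 was lower at 12 h (-0.34, adjusted p = 5.05e-10, then -0.061, adjusted p = 0.211), and FOLH1 fell by 0.20 and 0.16.

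Markers of other cells were at low levels. Of 10 stromal, immune and endothelial markers, 3 were tested, and the summed level of the list went from 37.7 to 40.6 CPM at 0 h to 30.8 to 32.9 CPM at 24 h. VWF fell by 0.58 and 0.83 on the log2 scale (adjusted p = 6.77e-07 and 3.07e-10). LUM rose at 24 h by 0.56 (adjusted p = 0.0479), a call that ended when any 1 of the 9 libraries was left out (0.47 to 0.60, adjusted p up to 0.166). COL1A1 differed by -0.14 and -0.11 without passing. KRT14, the only basal marker tested, differed by -0.91 and -1.26 without passing, and it passed at 24 h without the second 24 h library (-2.77, adjusted p = 0.0326). All libraries came from cultures of the LNCaP line, so these values are given as levels in that line. In bulk RNA, fewer cells with a transcript and less of it per cell cannot be told apart.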

How the data were processed

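Total RNA was extracted from LNCaP cells, and 9 mRNA libraries were sequenced, in 3 groups of 3 taken from the sample titles. Per the study's methods, the authors trimmed read pairs with Cutadapt, used STAR for alignment to GRCh38 and featureCounts for counts per gene, and they left out 1 time 0 replicate of LNCaP whose treatment the methods do not name. The captions give a full set of replicates for NRG1 alone and fewer where ASPN is included. Strand and multimapping settings were not given in the sources used here. The authors deposited whole-number counts, 1 column per library, with 14 empty columns that were not used. Counts cover 37351 genes and were taken without molecular identifiers, so the Poisson intervals and floors cover counting error only, while SDs, SEs and the intervals of fold changes reflect the spread between replicates.

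Genes were filtered with filterByExpr (19250 left), scaled by TMM and tested with edgeR 4.0.16 in R 4.3.3 (robust quasi-likelihood fit of all 9 libraries, no covariate), for the 3 pairs of times and for any difference among them. DESeq2 1.42.0 was an alternative. Steps were tested on simulated data. Exon lengths came from a later GENCODE release, promoters from RefSeq GRCh38.p14, and coordinates from the deposited table. Copies were sought with BLAST 2.17.0 (at least 95% identity over 150 bases). The markers, lists and tests were chosen with earlier results of these data known. From each list other than the markers, the genes named were the 4 with the smallest p among the 3 times and the 2 highest per kilobase. Genes named beside these, such as CPE, VAMP2, KRT8, KLK2, HOXB13, ACP3 and those under the filter, were chosen after their values were seen. Some genes that meet these rules are counted in their lists but not reported here by name. For genes under the filter, CPM were compared with an exact permutation test.

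Replicate numbers did not pair the libraries: libraries with the same number in different groups deviated from their group means with correlations of -0.037 to 0.029.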

Additional observations from a re-analysis of the deposited data

Results flagged for a closer look

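Genes are given here whose effect at 24 h differed from that at 12 h, by edgeR's test of 24 h against 12 h (adjusted p at most 0.05 over all genes). None of the neuroendocrine markers was among them. In the granule list the log2 difference was 0.39 for PCSK1N (adjusted p = 4.10e-05), 0.40 for PAM (adjusted p = 0.00200), 0.21 for CPE, a carboxypeptidase of prohormones (adjusted p = 0.000193), and 0.12 for SYT4 (adjusted p = 0.0146). In the order 0, 12 and 24 h, CPE stood at 82.0, 77.3 and 89.3 CPM. The SYT4 difference lost its call without the first or second 12 h library or the first 24 h library (0.11 to 0.12, adjusted p = 0.0576 to 0.0839). Among neuronal genes the difference was -0.59 for CPLX1 (adjusted p = 1.09e-10) and -0.36 for STMN3 (adjusted p = 0.00427), both lower at 24 h than at 12 h. The tubulin TUBB4A differed by 0.24 (adjusted p = 0.00390). Among luminal genes the differences were -0.17 for KLK3 (adjusted p = 0.00105), -0.34 for KLK2 (adjusted p = 5.95e-08), -0.15 for HOXB13 (adjusted p = 0.00160), -0.19 for ACP3 (adjusted p = 0.0207), -0.32 for TMPRSS2 (adjusted p = 3.67e-06), -0.35 for SLC45A3 (adjusted p = 9.22e-09) and 0.28 for STEAP2 (adjusted p = 1.87e-07). The ACP3 difference lost its call without the third 12 h library or the second or the third 24 h library (-0.19 to -0.14, adjusted p = 0.0576 to 0.170).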

How the results depend on the processing

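ENO2 kept its direction and its call at 12 h (log2 0.37 to 0.43) and 24 h (0.28 to 0.34) under all alternatives except a test against a 1.5-fold threshold (glmTreat), under which 0 markers changed at either time. The other markers stayed uncalled wherever an adjusted p was given. DESeq2 gave none for SCG5, nor for TUBB3 outside 24 h against 0 h. All tested genes past both thresholds numbered 457 at 12 h, 638 at 24 h and 87 for 24 h against 12 h. DESeq2 gave 284 at 12 h and 51 for 24 h against 12 h, and glmTreat gave 81, 153 and 5, which its stricter null makes fewer. Leaving out 1 library gave 356 to 473, 548 to 632 and 55 to 100, the last lowest without the second 12 h library. With the replicate number as a block the counts were 448, 621 and 92, and 3 of 9 libraries were closest to one with their own number. Some calls of named genes also ended under other settings. For KDM1A at 12 h this was without a scaling factor (adjusted p = 0.0637 in edgeR) or without the count filter (0.0917). For TUBB6 at 12 h it was without the count filter (0.0523). In DESeq2 the calls of ENO1 at 24 h (adjusted p = 0.0671), TUBB4A at 12 h (0.0580) and LUM at 24 h (0.0786) ended. LUM kept its call in 2 of 16 alternatives. No value of a named gene past a threshold changed sign. SCG2, CHGA and NTS had at most 8 counts per library. With 3 libraries a group, their exact permutation test could give no p under 0.1.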
